A study of Mus musculus with 20 samples.

Results

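MAP kinases, the kinases above them and the protein phosphatases that act on tyrosine, serine and threonine were followed at the messenger RNA level while 3T3-L1 cells, a mouse fibroblast line, turned into fat-storing adipocytes. The genes were taken by name: every gene on the arrays whose only annotated symbol begins with Mapk, Map2k, Map3k, Map4k, Ptpn, Ptpr or Dusp, or with Ppp and a digit, apart from Dusp1 and Ppp1r15a. This gave 81 of the 6137 named genes, each read from its probe set with the highest mean. The series follows 1 course of 10 time points, from growing cells to cells long after induction with the differentiation mixture MDI, in standard use isobutylmethylxanthine, dexamethasone and insulin. Preconfluent and confluent cells (n = 2) stood before induction. The early stage was 6, 12 and 24 hours after it (n = 3), the middle stage days 2 and 3 (n = 2) and the late stage days 4, 7 and 28 (n = 3). Every time point is read once on array A and once on array B, the 2 Affymetrix array types, with no replicate and no uninduced cells at matching times. The p-values below therefore measure the spread between neighbouring time points, which may be technical and also holds real change with time.

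MAP kinases form relays in which a kinase of the Map3k or Map4k type activates a Map2k kinase, which in turn activates the MAP kinase by phosphorylating a threonine and a tyrosine. Dual-specificity phosphatases remove both phosphates, tyrosine phosphatases act on receptors and adaptors higher up, and the serine and threonine phosphatases pair a small number of catalytic subunits with many regulatory ones. In fat cell precursors the relays carry the growth signal that follows induction, and tyrosine phosphatases such as the product of Ptpn1 limit insulin signalling. The arrays read messenger RNA and say nothing of phosphorylation.

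Values are linear intensities, and a value at or below 136 on array A or 156 on array B, the floor, was taken as not measurable. Summed over 8 adipocyte markers, intensity lay between 2338 and 10669 before induction and between 109050 and 132410 late. Over 9 fibroblast markers it lay between 74430 and 97290 before and between 33301 and 67273 late. Negative values entered these sums as deposited. All 8 adipocyte markers and none of the fibroblast markers were called higher late than before, and 3 of the 9 fibroblast markers lower. In a bulk sample, fewer cells of a type and less RNA per cell cannot be told apart. On array A the Gapdh control gave 3-prime over 5-prime ratios, which bear on RNA quality, between 0.986 and 1.33 before, between 1.43 and 1.61 early and between 0.992 and 1.14 late. The beta-actin control on array A lay between 1.05 and 1.48 before, between 1.39 and 1.45 early and between 1.29 and 1.41 late. Gapdh on array B lay between 0.722 and 0.815 at all times. Array B readings of beta-actin were 0.824 to 0.872 before induction, 0.801 to 1.11 early, 1.06 to 1.08 in the middle stage and 0.955 to 1.05 late. That control thus stood higher late than before on array B, and its part in differences read there was not tested. In the middle stage, array A gave 1.27 to 1.6 with Gapdh. Its beta-actin ratio was then 1.41 to 1.72.

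Of the 81 genes, 54 exceeded a limit of 182 (array A) or 156 (array B) at 2 or more time points and were tested. Of these 54 genes, 39 stood above the floor at all 10 time points. Of the 27 genes not tested, 18 stood at or below the floor at all 10. The largest difference between any 2 time points had a median of 1.28 on the log2 scale, against 1.45 for all 4108 named genes tested, and exceeded 2 for 11 of the 54 genes (20.4%) against 25.9% of all. Across the 5 tests run (late, early and middle against before, late against early, and change along the series), 7 genes passed an adjusted p of 0.05 from limma in at least 1: Ppp2r5a, Ppp2cb, Ppp1cc, Ppp3ca, Dusp6, Ptpn13 and Map4k4. Those were 13.0% of the 54, against 22.5% of all named genes.

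Late against before, 2 of 54 genes were called, 1 higher and 1 lower (3.7%), where 11.3% of all named genes were called, 6.13% higher and 5.21% lower. The median difference of the 54 was -0.17 on the log2 scale, against -0.07 for all. Late against early, 1 gene was higher and 3 lower (7.41%), against 14.8% of all named genes, 7.52% higher and 7.28% lower. Along the series 5 of 54 genes changed (9.26%), against 17.3% of all. Early against before called none of the 54 with limma, against 0.365% of all named genes. At an unadjusted p under 0.05 that comparison held 5 of the 54 (9.26%), against 9.1% of all. Middle against before likewise called none, against 2.92%, and at an unadjusted p under 0.05 it held 4 (7.41%), against 16.4%. At that unadjusted p, late against before held 8 (14.8%), against 25.8%, and late against early 12 (22.2%), against 28.0%. Along the series it held 18 (33.3%), close to the 32.9% of all named genes. In no test did the share of kinase and phosphatase genes called at an adjusted p under 0.05 exceed the share of all named genes.

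**Figure D1:**
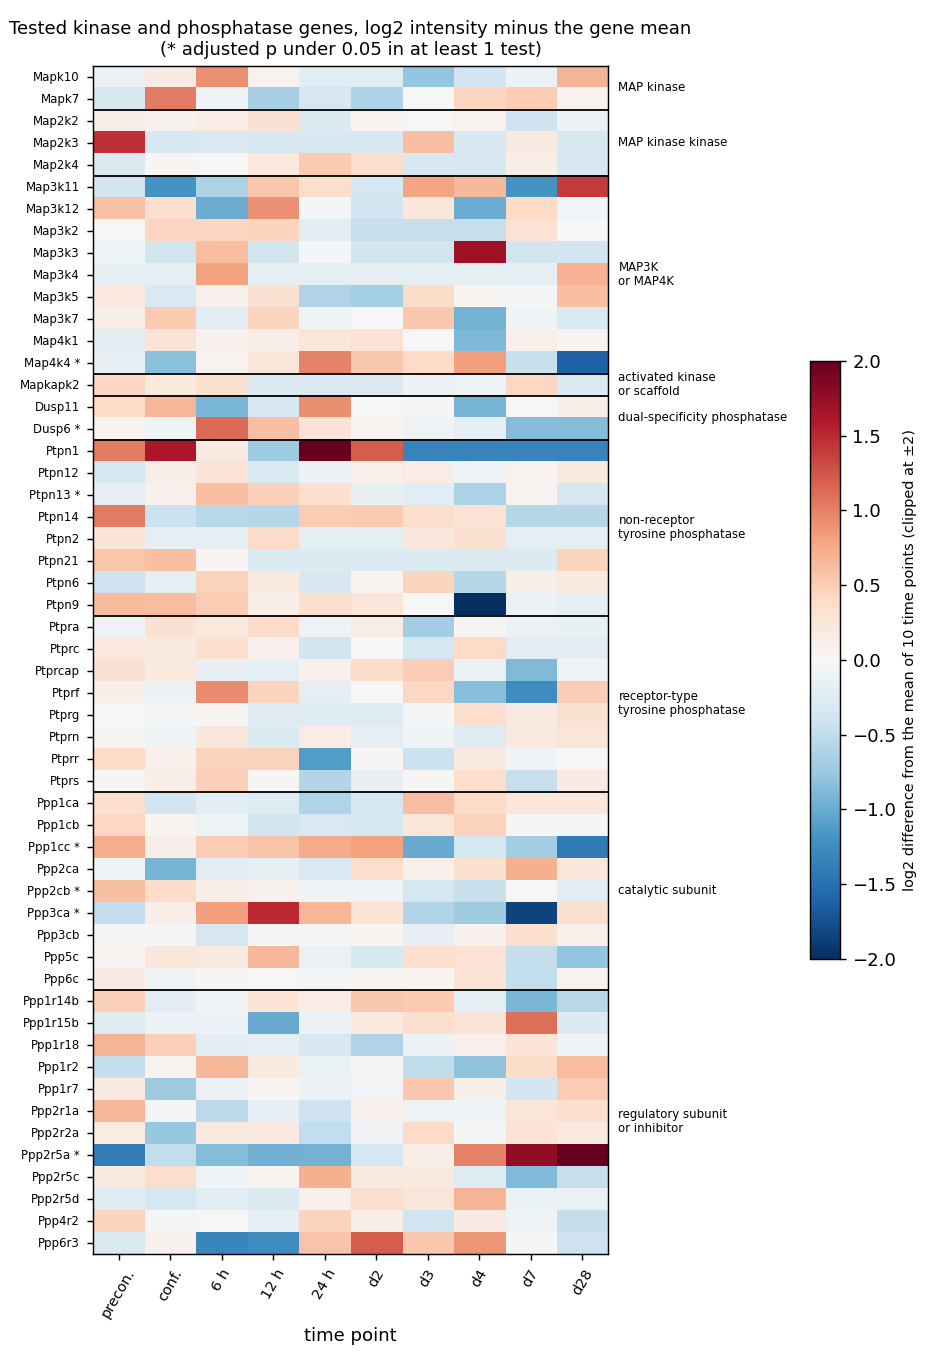
Log2 intensity of the 54 tested genes at 10 time points, each row relative to its own mean, with values at or below the floor set to it and colours clipped at 2; black lines part the roles, and a star marks the 7 genes with an adjusted p under 0.05 in at least 1 test. Ppp2r5a is the row that climbs to its highest values on days 4, 7 and 28, and Ppp3ca and Dusp6 are darkest red at 12 hours and 6 hours.

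Of the 54 genes, 23 (42.6%) had their highest value at 6, 12 or 24 hours, against 29.0% of all named genes. This count rests on 1 array per time point and was not tested.

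The MAP kinases were represented by Mapk7, Mapk10 and Mapk14, and other MAP kinases were not analysed here. Mapk7 encodes the large kinase ERK5 of the growth factor response. Its intensity was 336 in preconfluent and 853 in confluent cells, then 394, 263 and 331 at 6, 12 and 24 hours, 274 and 418 on days 2 and 3, and 564, 596 and 437 on days 4, 7 and 28. All 3 late values lay above all 3 early ones, by 0.70 ± 0.35 (SE) on the log2 scale, which was not called (adjusted p = 0.234). Mapk10, a stress-activated kinase of the JNK group known mainly from the nervous system, was highest at 6 hours with 937 and on day 28 with 801, and lowest on day 3 with 291 (trend adjusted p = 0.0772). Mapk14, a kinase of the p38 group, rose above the floor at a single time point, with 167 on day 7, and was not tested.

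The kinases that activate MAP kinases gave no call among 3 tested genes, where 22.5% of all named genes were called in any test. Map2k2, which activates the ERK kinases, was the steadiest, between 2230 on day 7 and 3650 at 12 hours (late against before -0.27 ± 0.30 SE, adjusted p = 0.63). Map2k3, an activator of the p38 kinases, lay at 468 in preconfluent cells and between -27 and 257 afterwards, with 6 of 10 values at or below the floor (adjusted p = 0.386). Map2k4, which activates the JNK kinases, lay between -194 on day 28 and 243 at 24 hours (adjusted p = 0.965). Map2k1 reached 286 on day 28 and stood below the limit for testing at every other time point, and Map2k6 never passed the floor. Neither was tested.

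Among 11 genes of the Map3k and Map4k type, 9 were tested and 1 was called in any test (11.1%), against 22.5% of all named genes. Map4k4 encodes a kinase upstream of the JNK relay that is known as a negative regulator in adipocytes. Its intensity was 440 in preconfluent and 275 in confluent cells, then 516, 583 and 977 over the first 24 hours, 713 and 645 on days 2 and 3, and 869, 361 and 160 on days 4, 7 and 28. The middle of the course was thus high and both ends low (trend adjusted p = 0.0256), while the late and early stages overlapped (-0.85 ± 0.52 SE, adjusted p = 0.325). The trend call was lost without 12 hours (adjusted p = 0.0548), day 7 (0.113) or day 28 (0.201), with the floor doubled (0.129) and with no filter (0.119). Map3k11, a mixed lineage kinase, had its highest value on day 28 with 820, but 71 on day 7 and -91 in confluent cells (late against before 1.07 ± 0.68 SE, adjusted p = 0.367). Map3k3 stood at 566 on day 4 and at 55 and 27 on the other late days (adjusted p = 0.602). The remaining 6 tested genes of this type differed between late and before by between -0.76 and 0.29 on the log2 scale. Map3k1 and Map3k8 were not tested, with highest values of 195 and 66.

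Of the kinases that MAP kinases activate and the scaffold genes, only Mapkapk2 could be tested, a kinase downstream of the p38 kinases, which lay between 97 on day 2 and 254 on day 7 (late against before -0.29 ± 0.27 SE, adjusted p = 0.556). The scaffold genes Mapk8ip1 and Mapk8ip3 stayed at or below the floor except for 286 in confluent cells for Mapk8ip1.

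Dusp6, which encodes the cytoplasmic phosphatase that acts on the ERK kinases and is itself a target of their signal, was highest in the early stage. Its intensity was 257 and 234 before induction, 540 at 6 hours, 377 at 12 hours and 294 at 24 hours, 257 and 231 on days 2 and 3, and 215, 98 and 121 on days 4, 7 and 28. The 3 early values lay above every other value of the course. Dusp6 was at least 2.47-fold lower late than early (log2 difference -1.30 ± 0.31 SE, n = 3 against 3, adjusted p = 0.0184), and the trend was called (adjusted p = 0.0455). Early against before was not (0.67 ± 0.34 SE, adjusted p = 0.613). The late against early call was lost without 6 hours (adjusted p = 0.0643), 12 hours (0.0592), day 7 (0.0613) or day 28 (0.0563) and with the floor doubled (0.179), no filter (0.0561) or days 4 and 7 alone as the late stage (0.056). The trend call was lost in each of the 10 fits that left out a time point (adjusted p between 0.0615 and 0.12) and in 5 of 9 other settings, up to 0.349 with the floor doubled. The Gapdh ratio on array A was also higher early than late, and its part in this difference was not tested.

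Dusp1, the nuclear relative left out by the naming rule, was highest at 6 hours as well, with 614 and 293 in the samples before induction, 4730, 1830 and 1830 early and 864, 391 and 419 late (late against early -2.27, adjusted p = 0.0303; early against before 2.57, adjusted p = 0.187). Dusp11, which acts on RNA more than on proteins, lay between 162 and 589 with no call, and its 2 probe sets peaked at different times, 24 hours and day 28. The other dual-specificity genes were not tested. Dusp16 passed the floor on day 7 alone, with 223, and Dusp2 and Dusp9 never did.

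**Figure D2:**
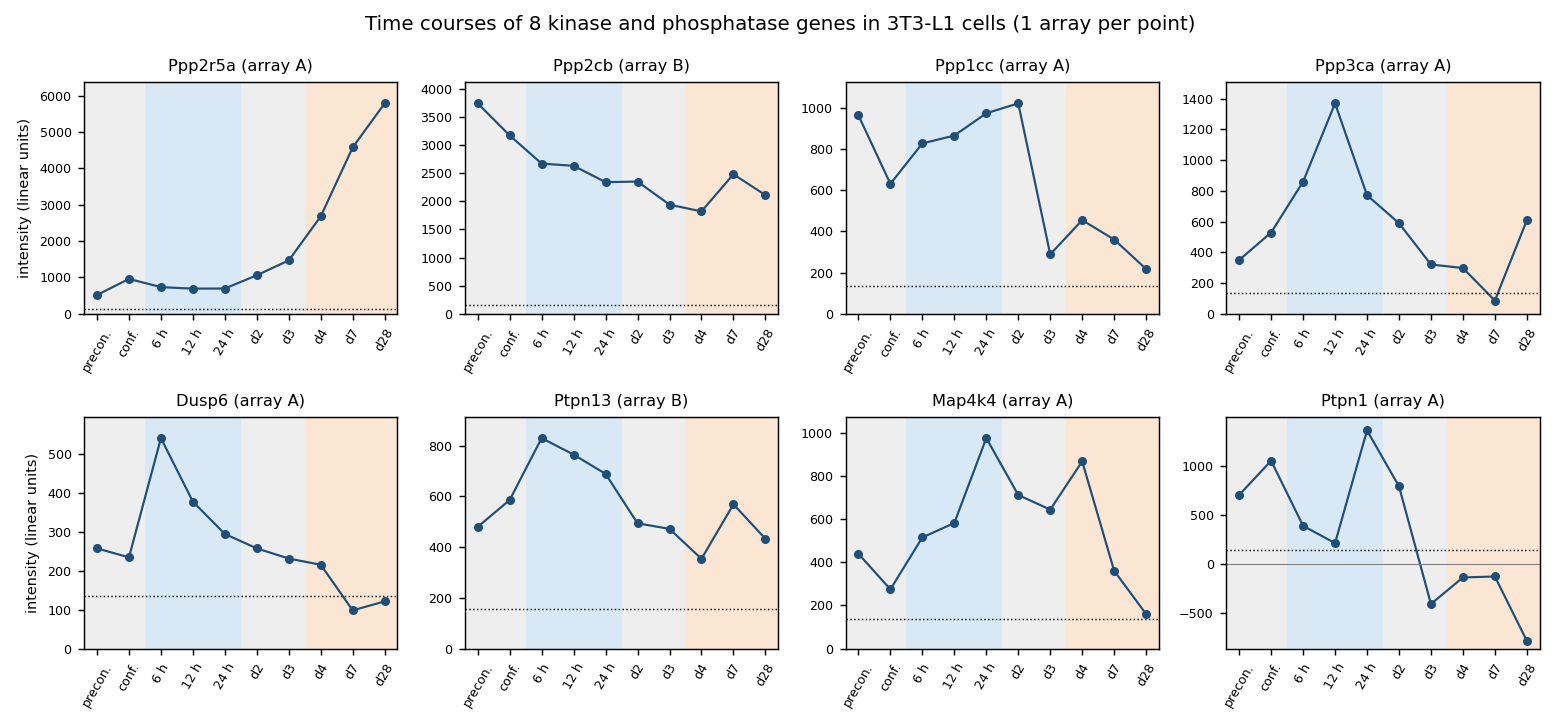
Linear intensity at 10 time points, 1 array each and in order but not to scale on the time axis, for the 7 called genes and Ptpn1; the dotted line is the floor, and shading marks the stages, grey before induction and middle, blue early and orange late. Dusp6, Ptpn13 and Ppp3ca are highest in the blue early stage, Ppp2r5a in the orange late stage, and Ptpn1 lies below the floor from day 3 on.

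The non-receptor tyrosine phosphatases held 1 called gene among 8 tested (12.5%), where 22.5% of all named genes were called in any test. Ptpn13 encodes a large membrane-associated phosphatase with several protein-binding domains. Its intensity was 480 and 586 before induction, 830, 765 and 689 early, 494 and 472 on days 2 and 3, and 354, 569 and 433 late. The 3 early values were the highest of the course. It was 1.71-fold lower late than early (-0.78 ± 0.20 SE, n = 3 against 3, adjusted p = 0.0343). The call was lost in 7 of 10 fits that left out a time point, without 6 hours (adjusted p = 0.099), 12 hours (0.102), 24 hours (0.0577), day 2 (0.0562), day 3 (0.0555), day 4 (0.077) or day 28 (0.0832). It was also lost in 4 of 9 other settings, with the floor halved (0.0515), no filter (0.0799), an intensity trend in the prior (0.0615) or days 4 and 7 alone as the late stage (0.0834).

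Ptpn1, whose product removes phosphate from the insulin receptor, covered the widest range of the tyrosine phosphatases. Preconfluent cells gave 701 and confluent cells 1050, the early stage 386, 209 and 1360, days 2 and 3 gave 789 and -412, and the late stage -141, -131 and -788. The values up to day 2 were all above the floor and those from day 3 on all below it. The late against before difference of -2.66 ± 0.78 (SE) missed the threshold (adjusted p = 0.052). It passed in 4 of 10 alternative settings, such as the floor halved (adjusted p = 0.0456), and in 4 of 10 fits without a time point, and over all of these its adjusted p ranged from 0.0259 to 0.265. A value below 0 carries no level, and the size of the difference depends on the floor (-3.66 with it halved).

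Ptpn9, a phosphatase of secretory vesicles, stood at 1250 and 1240 in the first 2 samples, between 879 and 1140 early, at 948 and 809 on days 2 and 3 and at 182, 739 and 705 late (late against before -1.45 ± 0.52 SE, adjusted p = 0.105). Its late values were all the lowest of the course. Ptpn14 was highest in preconfluent cells with 412, was between 112 and 289 from confluence to day 4, and lay below the floor on days 7 and 28 with -85 and 60, without a call (adjusted p = 0.508). Ptpn12, which acts on focal adhesion proteins, stayed between 1050 and 1600. The other 3 tested genes, Ptpn2, Ptpn6 and Ptpn21, differed by between -0.61 and 0.21 on the log2 scale, late against before. Ptpn11, which encodes the phosphatase SHP2 of the Ras pathway, never rose above 0 on its probe set, and neither did Ptpn18. Ptpn5 and Ptpn22 had highest values of 128 and 103.

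Genes with a Ptpr symbol, grouped as receptor-type tyrosine phosphatases, were often dim. Of 18, 10 were not tested. None of the 8 tested was called in any test, against 22.5% of all named genes. The 18 and the 8 include Ptprcap, whose product binds such a phosphatase. Late against before, the 8 differed by between -0.61 (Ptprcap) and 0.29 on the log2 scale, and the lowest of the others was Ptprf at -0.53. Ptprs, a receptor of proteoglycans, lay between 2010 at 24 hours and 4200 at 6 hours (late against before -0.06 on the log2 scale). Ptprf, a phosphatase of cell junctions that also acts on the insulin receptor, gave 441 and 376 before, then 789, 557 and 359 early, 408 and 545 on days 2 and 3, and 226, 172 and 575 late. Its late against early difference of -0.94 ± 0.45 (SE) was not called (adjusted p = 0.197) but passed without day 28 (-1.45, adjusted p = 0.0368). The other probe sets of Ptprf stayed below the floor. Ptprr lay between 149 at 24 hours and 445 at 12 hours, with no call.

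Ptprc, the leukocyte antigen CD45, gave values between 1000 and 1720, and Ptprcap, which encodes a small protein bound to it, between 180 and 465. Of 12 leukocyte markers read, Ptprc among them, 8 were tested, and none was called higher and 1, Cd14, lower late than before. Their summed intensity lay between 5953 and 6065 before, between 3656 and 7940 early and between 3203 and 5560 late. Ptprc and Ptpn6, both among the 81 genes, are part of these sums, which also hold negative values. Csf1r, Adgre1 and Cd79a never rose above the floor, while Cd14 lay between 1000 and 2470. Lyz2 lay between 140 and 1650 and Ptpn6 between 350 and 721. The probe sets of Ptprc and Ptprcap both carry the maker's mark for probes that may match more than 1 transcript, as did 65 of the 81 probe sets used. Whether they read CD45 in these cells was not tested.

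The catalytic subunits of the serine and threonine phosphatases held 3 called genes among 9 tested, where 22.5% of all named genes were called in any test. Ppp3ca encodes the catalytic subunit of calcineurin, the calcium-dependent phosphatase that activates NFAT transcription factors. Its intensity was 350 and 529 before induction, 860, 1370 and 772 at 6, 12 and 24 hours, 590 and 321 on days 2 and 3, and 298, 86 and 609 late. The 3 early values were the highest of the course. It was at least 2.88-fold lower late than early (-1.73 ± 0.50 SE, n = 3 against 3, adjusted p = 0.0421) and changed along the series (adjusted p = 0.0352). The trend call was lost in 6 of 10 fits without a time point and in 3 of 9 other settings, up to an adjusted p of 0.334 for a spline with 2 degrees of freedom. The late against early call held without the preconfluent sample or day 28 and was lost in the other 8 fits without a time point, with the highest adjusted p without 12 hours (0.149) and day 7 (0.127). It was also lost in 4 of 9 other settings, up to 0.207 with no filter. Like Dusp6, Ppp3ca was read on array A, where the Gapdh ratio was higher early than late. The part of that ratio in the difference was not tested. Ppp3cb, the other widely expressed calcineurin gene, stayed between 679 and 1070 over the course (late against early 0.28, adjusted p = 0.285), and Ppp3cc never passed the floor. Whether Ppp3ca and Ppp3cb differed from each other was not tested.

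Whether the protein phosphatase 1 catalytic genes differed from each other in their courses was not tested. Ppp1cc gave 962 and 630 before, 826, 864 and 972 early, 1020 on day 2, 288 on day 3, and 454, 360 and 217 late. Every value up to day 2 lay above every later one, a split chosen after the values were seen and not tested. The trend was called (adjusted p = 0.0474), in a test that does not locate a step. Late against early stood at -1.43 ± 0.45 (SE, adjusted p = 0.0581). The trend call was lost in 7 of 10 fits without a time point, with the highest adjusted p without day 28 (0.225), and in 6 of 9 other settings. Ppp1ca was lowest at 24 hours with 4110 and highest on day 3 with 9600, and its late values of 8130, 7370 and 7280 all lay above the early ones (0.64 on the log2 scale, adjusted p = 0.22). Ppp1cb lay between 379 and 684 and Ppp6c between 1080 and 1850 without a call. Ppp5c was not called on the probe set used (trend adjusted p = 0.343), while its other probe set, with 574 on day 3 and 32 on day 28, passed (adjusted p = 0.0323).

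Protein phosphatase 2A has a pair of nearly identical catalytic subunits, a scaffold and interchangeable regulatory subunits that choose its substrates. Ppp2cb, the beta catalytic subunit, gave 3740 and 3170 before induction, 2670, 2630 and 2340 early, 2350 and 1940 on days 2 and 3, and 1820, 2480 and 2110 late. Both values before induction were the highest of the course. Late against before it was 1.62-fold lower (-0.70 ± 0.19 SE, n = 3 against 2, adjusted p = 0.0499). That p stood at the threshold, and the call held without day 7 and was lost in the other 9 fits that left out a time point, with the highest adjusted p without the preconfluent sample (0.24). It was also lost in 5 of 10 other settings, up to 0.212 against the confluent sample alone. Ppp2ca, the alpha catalytic subunit, gave 2380 and 1310 before, 2140, 2210 and 2040 early, 3210 and 2700 on days 2 and 3, and 3120, 4100 and 2940 late, with the difference of 0.92 ± 0.27 (SE) short of a call (adjusted p = 0.0605). Without the preconfluent sample it was 1.35 and passed (adjusted p = 0.0273). The difference between the 2 catalytic genes was not tested. Both were read on array B, where the beta-actin ratio was higher late than before. The part of that ratio in their late against before differences was not tested.

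Ppp2r5a, a regulatory B56 subunit of protein phosphatase 2A, had the largest called difference of the 54 genes. Its intensity was 518 in preconfluent and 960 in confluent cells and 734, 692 and 696 at 6, 12 and 24 hours. It then climbed to 1060 and 1470 on days 2 and 3 and to 2680, 4580 and 5790 on days 4, 7 and 28. Each value from day 2 on was higher than the one before it. Late against before it rose 5.87-fold (2.55 ± 0.39 SE, n = 3 against 2, adjusted p = 0.00274), late against early 5.86-fold (2.55 ± 0.35 SE, n = 3 against 3, adjusted p = 0.00142), and the trend was called (adjusted p = 0.000886). The late against before call held in all 10 alternative settings run for it and in all 10 fits that left out a time point, with adjusted p between 0.00117 and 0.0384. Ppp2r5a too was read on array A, where the Gapdh ratio was higher early than late. The part of that ratio in the late against early rise was not tested. Early against before the difference was 0.00 (adjusted p = 1).

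None of the other subunit genes read was called late against early, where 14.8% of all named genes were called. Ppp2r5c, a second B56 subunit, was read on both array types. On array B the samples before induction gave 1290 and 1440 and the late ones 944, 610 and 817, and on array A 1100 and 1290 against 942, 536 and 663. The differences were -0.81 and -0.78 on the log2 scale and were not called (adjusted p = 0.1 and 0.175), and on both arrays 24 hours was the highest and day 7 the lowest time point. Ppp2r5d was highest on day 4 with 2230 and lay between 1100 and 1790 otherwise. The scaffold gene Ppp2r1a was highest in preconfluent cells with 2700 and lowest at 6 hours with 1190, and Ppp2r2a lay between 197 and 431. None of these was called.

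**Figure D3:**
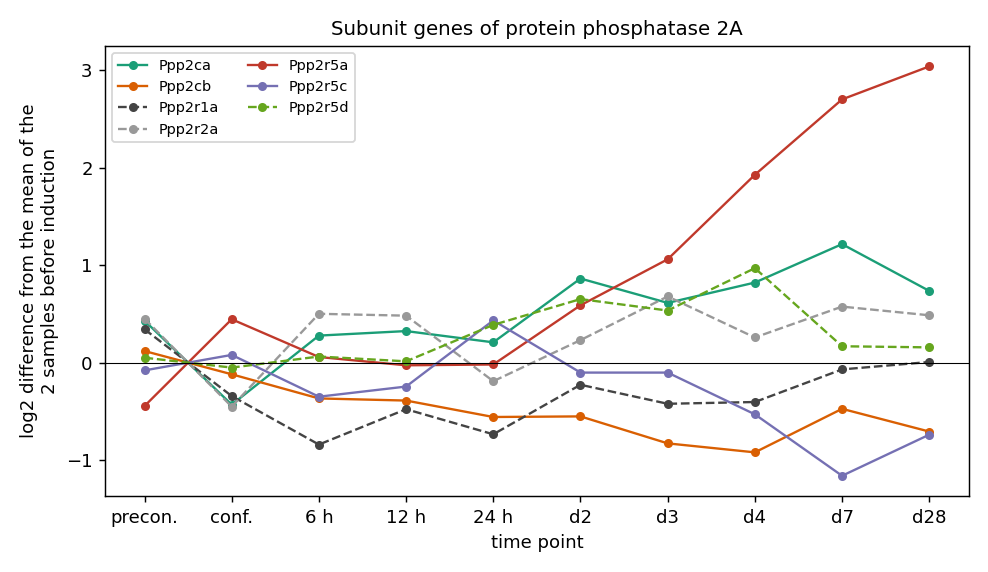
Log2 intensity of 7 protein phosphatase 2A subunit genes relative to the mean of the 2 samples before induction, at 10 time points with 1 array each; solid lines are the catalytic and the Ppp2r5a and Ppp2r5c genes, dashed lines the other subunits. Ppp2r5a is the highest line from day 3 on, while Ppp2cb and Ppp2r5c end below 0.

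Of 12 tested regulatory genes 1, Ppp2r5a, was called in any test (8.33%), against 22.5% of all named genes. Regulators of protein phosphatase 1 and of the smaller phosphatases thus gave no call. Late against before, the 11 tested regulatory genes other than Ppp2r5a differed by between -0.81 and 0.54 on the log2 scale. Ppp1r15b, which directs protein phosphatase 1 to the translation factor eIF2 alpha, lay between 194 at 12 hours and 831 on day 7 (late against before 0.54 ± 0.42 SE, adjusted p = 0.473). Its stress-induced relative Ppp1r15a, left out by the naming rule, was highest on the same day with 1010 and not called (adjusted p = 0.245). Ppp6r3 stood at 174 and 181 at 6 and 12 hours and at 635 and 993 at 24 hours and on day 2 (trend adjusted p = 0.0823). Ppp1r14b, an inhibitor of protein phosphatase 1, lay between 2300 on day 7 and 6300 on day 2 (late against before -0.69, adjusted p = 0.15). Ppp1r18, an actin-binding partner of protein phosphatase 1, had both of its highest values before induction, 2350 and 2030, and its lowest on day 2 with 969 (middle against before -0.93, adjusted p = 0.15). Ppp1r3c, a glycogen-targeting subunit, passed the floor on day 28 alone, with 264, and was not tested, and Ppp1r14a never rose above 0.

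**Figure D4:**
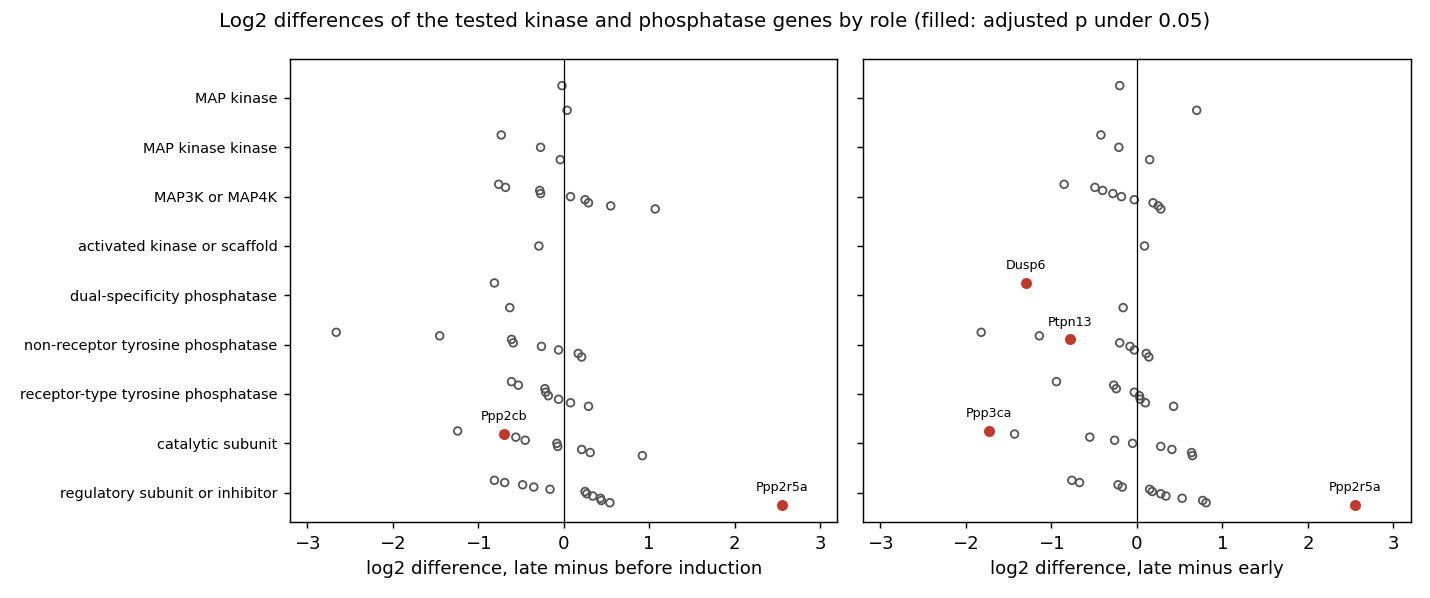
Log2 differences of the 54 tested genes, late minus before induction on the left and late minus early on the right, by role, with genes spread vertically within a role for legibility; filled red points passed an adjusted p of 0.05. Ppp2r5a lies at 2.55 in both panels, and most other genes lie within 1 of 0.

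The DNA just upstream is shown for those of the 7 called genes that had a window at hand. Ppp2cb, Ppp3ca and Map4k4 had none. The windows are the 250 bases before the annotated start in RefSeq on GRCm38.p6, 5′ to 3′ on the gene's strand, for the 4 of the 7 called genes that the table holds: Dusp6 at chr10:99262981-99263230 (plus strand), Ptpn13 at chr5:103424942-103425191 (plus), Ppp2r5a at chr1:191397042-191397291 (minus) and Ppp1cc at chr5:122158025-122158274 (plus). Capitals mark matches on either strand to the cyclic AMP response element TGACGTCA, the E-box CACGTG, the GC box GGGCGG or the CCAAT box CCAAT.
Dusp6: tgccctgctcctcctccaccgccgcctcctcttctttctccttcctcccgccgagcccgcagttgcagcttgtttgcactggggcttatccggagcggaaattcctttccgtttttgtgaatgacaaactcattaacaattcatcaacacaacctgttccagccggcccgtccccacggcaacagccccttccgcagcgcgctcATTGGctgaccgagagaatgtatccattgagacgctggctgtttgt
Ptpn13: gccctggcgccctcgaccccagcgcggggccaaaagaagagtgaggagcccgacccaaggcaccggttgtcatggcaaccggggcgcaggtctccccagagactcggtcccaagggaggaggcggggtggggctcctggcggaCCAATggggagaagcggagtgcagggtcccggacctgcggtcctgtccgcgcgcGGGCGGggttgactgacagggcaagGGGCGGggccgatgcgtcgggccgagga
Ppp2r5a: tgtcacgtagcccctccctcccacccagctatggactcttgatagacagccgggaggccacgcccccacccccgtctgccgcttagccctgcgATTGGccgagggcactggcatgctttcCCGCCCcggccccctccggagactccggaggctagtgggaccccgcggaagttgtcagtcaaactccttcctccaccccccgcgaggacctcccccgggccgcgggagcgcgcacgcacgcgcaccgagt
Ppp1cc: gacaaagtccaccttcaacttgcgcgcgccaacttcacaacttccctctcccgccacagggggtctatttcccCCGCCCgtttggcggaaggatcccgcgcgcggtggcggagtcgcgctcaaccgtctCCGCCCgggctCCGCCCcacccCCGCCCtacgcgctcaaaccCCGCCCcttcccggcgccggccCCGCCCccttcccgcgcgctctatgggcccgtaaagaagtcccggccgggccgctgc

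Dusp6 held 1 CCAAT box in a window of 56.4% G and C, Ptpn13 2 GC boxes and 1 CCAAT box, Ppp2r5a 1 of each, and Ppp1cc 6 GC boxes. None of the 4 windows held the full cyclic AMP response element or the E-box. Of all 32851 windows of this length, 1.55% held the cyclic AMP response element, 6.02% the E-box, 32.7% the GC box and 33.8% the CCAAT box. All windows include those of non-coding genes. Of 90 windows belonging to 64 of the 81 genes, the shares were 4.44%, 5.56%, 61.1% and 28.9%. A match describes the letters and shows no binding.

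Other genes of the pathway, no part of the 81, were counted by list. Of 22 tested genes for receptors, adaptors, Ras, Raf and their modulators, 2 were lower late than before and none higher, 1 was higher early than before, and late against early 1 was higher and 3 lower, with a median late against before of -0.16 on the log2 scale. A further count was 1 lower in the middle stage than before, and 5 of the 22 changed along the series. Over all named genes the shares called were 11.3% late against before, 0.365% early against before, 14.8% late against early, 2.92% middle against before and 17.3% along the series. Rras, a small GTPase related to Ras, rose from 210, -233 and 184 early to 1510, 1390 and 1580 late (at least 3.10 on the log2 scale, adjusted p = 0.00822). Pdgfrb, a receptor of platelet-derived growth factor, fell from 1710 and 1900 before to 199, 354 and 953 late (-2.15, adjusted p = 0.0461). It already stood at 498, 320 and 387 early (early against before -2.19, adjusted p = 0.212), and late against early differed by 0.04 (adjusted p = 0.973). Its relative Pdgfra fell from 353, 489 and 1010 early to below the floor at all 3 late times. The fitted -2.04 (adjusted p = 0.0462) is thus set by the floor, and the drop is at least that large. Rasa3, which switches Ras proteins off, rose from 537 and 813 before to 2120, 2310 and 2320 early (1.77, adjusted p = 0.0381). Gadd45b, a stress-induced activator of the kinase encoded by Map3k4, was called in 4 of the 5 tests and is named after its values were seen. Its intensity was 492 and 414 before, 674, 547 and 571 early, 220 and 155 on days 2 and 3, and 82, 200 and 215 late (late against early -1.66, adjusted p = 0.00173, with day 4 at the floor).

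Of 27 tested kinases and transcription factors downstream, 2 were lower late than before and none higher, 1 was higher late than early and 2 changed along the series. Over all named genes 11.3% were called late against before, 14.8% late against early and 17.3% along the series. The median late against before of the 27 was -0.10. Ddit3, a stress-induced factor that p38 kinases can phosphorylate, stood at 575 and 2540 before induction and rose from values below 0 at all 3 early times to 3270, 8190 and 2570 late. The early values were set to the floor, so the difference is at least 4.72 on the log2 scale (adjusted p = 0.00171). Pla2g4a, the cytosolic phospholipase A2 activated by MAP kinases, fell from 433 and 256 to values below the floor at all 3 late times. The fitted -1.29 (adjusted p = 0.0209) is thus set by the floor, and the drop is at least that large. It already stood at 154, 37 and 81 early (early against before -1.23, adjusted p = 0.163), and late against early differed by -0.06 (adjusted p = 0.917). Rps6ka3, a kinase activated by ERK, fell from 430 and 310 to 126, 149 and 189 (-1.22, adjusted p = 0.0313, with day 4 below the floor). Of 17 tested phosphatases of other families and phosphatase partners, none was called in any stage comparison, and 1, Ctdsp2, changed along the series (adjusted p = 0.0228). Ctdsp2 is named here because it was the only one called.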

How the data were processed

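Total RNA of 3T3-L1 cells was labelled by the maker's standard protocol and hybridised to 2 Affymetrix array types, per the labels. Each deposited value is a linear intensity of 1 probe set, and the authors kept negative values. The software was not given in the sources used here. Array means trimmed by 2% at either end ranged from 500.9 to 501.1, and the deposited scaling was kept.

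Values below the floor (the 10th percentile of an array type with its sign turned) were set to it before log2. limma 3.58.1 (R 4.3.3) fitted 4 stage means to each array type separately, leaving 6 residual degrees of freedom. The trend test took the F statistic of a spline (natural cubic, 3 degrees of freedom) on the ranks of the times. Within each test, p-values of all 7582 tested probe sets were adjusted together by Benjamini-Hochberg. SEs are limma's moderated ones. A fold is "at least" where the dimmer stage touches the floor and the brighter one does not. It is then the smaller of the fold from the log2 difference and the ratio of the arithmetic stage means, with low values set to the floor. Such a fold can therefore be smaller than the log2 difference beside it. The shares of all named genes use 1 probe set per gene, that with the highest mean. No array of a type correlated with another above 0.9788, and precision is limited by the number of arrays. The fit was also run on simulated data, for late against before alone, with independent normal noise and with the floor and filter out of force. That run cannot show how the calls fare with values set to the floor or with real change within a stage.

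Named with values were all called genes, all tested Mapk, Map2k and Dusp genes, and, of each other role, the 3 with the widest range, and up to 4 called genes of each pathway list, by size of difference. Further genes named were chosen after their values were seen. The genes, lists, stages and floor were chosen with earlier results of these data known. All 81 symbols matched RefSeq by gene ID.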

Additional observations from a re-analysis of the deposited data

How the results depend on the processing

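The 2 calls late against before became 1 with no filter on low values and with days 4 and 7 alone as the late stage, and lay between 1 and 2 when each time point was left out in turn. The 4 calls late against early became 2 with the floor doubled, 2 with it halved and 1 with no filter, and lay between 1 and 5 with a time point left out. The 5 trend calls became 3 with the floor doubled and 1 with no filter, and lay between 2 and 5. Early and middle against before called 0 of the genes in every setting run. Other probe set choices, quantile normalization, adjustment within array types and a trended prior kept the counts within 1.5 times.

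Over all probe sets, the 826 calls late against before became 412 with no filter and 317 against the confluent sample alone (354 to 769 with a time point left out). The 27 early against before became 65 with the floor doubled, 17 with an inverse hyperbolic sine, 15 with no filter, 11 with the stricter filter and 9 against the confluent sample alone (0 to 27). The 208 middle against before became 48 with no filter and 68 against the confluent sample alone (37 to 193), the 1040 late against early 514 with no filter (489 to 1043) and the 1274 trend calls 632 with no filter (793 to 1221). With no filter 13069 probe sets were tested in place of 7582; the cause of the other shifts was not tested. No call of a named gene changed direction. Ppp2r5a was the only one of the 7 called genes that kept each of its calls in every setting and without every time point. A stage left with 1 sample was assumed to vary like the others. No paired analysis was possible because time points have no replicate numbers. Of the 81 genes, 27 were too dim to be tested unless the filter was dropped.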
